A study of Mus musculus with 3008 samples.

Results

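The proteasome genes of Foxp3+ regulatory T cells (Tregs) were read in single-cell RNA counts of colon and spleen cells. The genes were taken by name: every row starting with Psma, Psmb, Psmc, Psmd, Psme, Psmf or Psmg and a digit, leaving out Psmb8 and Psmb9, with at least 30 unique molecular identifiers (UMIs, the tags that count single RNA molecules) over all cells. Of 50 rows that fit the names, 48 were left without those 2, and 45 of them passed the minimum, out of 23725 genes in the table and 9580 genes that passed it. The 45 genes comprise 16 of the core particle, 17 of the regulatory particle and 12 activators, inhibitor and assembly chaperones. Psma8, a testis form of an alpha subunit, and Psme2b had 0 UMIs. Psmc3ip, a meiotic recombination factor that only shares the name, had 9 UMIs (4 in colon 1, 3 in colon 2 and 2 in spleen), and these 3 rows fell under the minimum.

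The cells came from male B6 Foxp3-Ires-Gfp mice, in which the Foxp3 gene also drives a green fluorescent protein, aged 7 months. Sorting took live (DAPI-), TCRb+ CD4+ and GFP+ cells from colon lamina propria, the tissue under the gut epithelium, into 2 libraries (colon 1 with 619 cells and colon 2 with 1772 cells), and from spleen into 1 library of 617 cells. Colons were digested with collagenase/dispase whereas spleens were dissociated mechanically, so a difference between the tissues and one between these procedures cannot be told apart. No animal is named in the labels, and the number of mice pooled in a library is not given in the sources used here. Spleen has 1 library, and nothing in the labels says whether the colon libraries come from separate animals. No test between tissues was made, no p-value is given, and the intervals below are exact 95% intervals that cover counting error only.

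The proteasome is the protease complex that degrades proteins marked with ubiquitin. Its core particle is a barrel of alpha and beta rings, with the proteolytic sites inside the beta rings, and the regulatory particle, made of an ATPase base and a lid, binds ubiquitin chains, removes them and threads the substrate in. Interferon induces alternative catalytic subunits, among them Psmb10, which takes the place of Psmb7, and the activator pair Psme1 and Psme2. When proteasome capacity falls short, the transcription factor encoded by Nfe2l1, paired with a small MAF protein, induces the subunit genes together through antioxidant response elements in their promoters.

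The promoter windows below are from RefSeq (GRCm38.p6, 250 bases before to 50 bases from the gene's start, 5′ to 3′ on the gene's strand), and 38 of the 45 genes were matched to one. Psmb1, Psmb2, Psmb7, Psmc3, Psmd3, Psmd7 and Psmg2 were not matched. A match to TGACNNNGC on either strand, the core of the antioxidant response element, was present in 6 of the 38 genes (Psmb5, Psmb6, Psmc6, Psmd9, Psmd12 and Psme4), and 12.4% of all 32851 windows held it. The CCAAT box (letters CCAAT, either strand) was present in 13 genes, against 37.4% of all windows. The AP-1 site TGACTCA was in 1 gene (5.2% of windows), where it did not overlap the element, and the STAT site TTCNNNGAA in 2 genes (8.3% of windows). Shown first are the 3 genes with the highest colon over spleen ratios among those with the element, in capitals. It begins at -9 from the gene's start in Psmb6 (chr11:70525107-70525406, plus strand), at -47 in Psmb5 (chr14:54617946-54618245, minus strand) and at -227 in Psmc6 (chr14:45329574-45329873, plus strand).
Psmb6: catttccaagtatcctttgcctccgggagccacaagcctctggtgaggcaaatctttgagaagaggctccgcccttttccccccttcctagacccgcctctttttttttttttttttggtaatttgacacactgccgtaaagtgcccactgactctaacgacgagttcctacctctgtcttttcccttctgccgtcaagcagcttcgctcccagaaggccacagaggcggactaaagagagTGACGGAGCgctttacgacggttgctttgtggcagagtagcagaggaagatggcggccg
Psmb5: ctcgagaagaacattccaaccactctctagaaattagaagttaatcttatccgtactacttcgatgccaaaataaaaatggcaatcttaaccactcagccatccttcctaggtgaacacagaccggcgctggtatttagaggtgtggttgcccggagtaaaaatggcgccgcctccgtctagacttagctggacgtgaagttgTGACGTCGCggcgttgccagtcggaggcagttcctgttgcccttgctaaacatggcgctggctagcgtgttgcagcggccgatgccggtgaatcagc
Psmc6: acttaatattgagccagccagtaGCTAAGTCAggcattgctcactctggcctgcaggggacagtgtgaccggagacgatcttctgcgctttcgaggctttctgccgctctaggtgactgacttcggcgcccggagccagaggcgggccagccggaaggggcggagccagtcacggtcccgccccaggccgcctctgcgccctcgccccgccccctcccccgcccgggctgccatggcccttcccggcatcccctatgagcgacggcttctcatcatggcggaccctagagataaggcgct

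The next pair shows the genes that stood farthest above and farthest below spleen among those with a similar ratio in both colon libraries, chosen after their values were seen. Neither holds the element in these windows. Psmc2 (chr5:21785025-21785324, plus strand) has a CCAAT box at -28, in capitals, and none of the 4 motifs was present in Psmb10 (chr8:105938343-105938642, minus strand), printed in lower case throughout.
Psmc2: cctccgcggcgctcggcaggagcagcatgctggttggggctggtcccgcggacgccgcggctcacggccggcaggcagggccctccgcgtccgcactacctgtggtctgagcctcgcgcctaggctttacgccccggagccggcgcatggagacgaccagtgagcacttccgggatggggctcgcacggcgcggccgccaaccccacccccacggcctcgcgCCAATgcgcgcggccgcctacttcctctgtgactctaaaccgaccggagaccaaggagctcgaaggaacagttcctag
Psmb10: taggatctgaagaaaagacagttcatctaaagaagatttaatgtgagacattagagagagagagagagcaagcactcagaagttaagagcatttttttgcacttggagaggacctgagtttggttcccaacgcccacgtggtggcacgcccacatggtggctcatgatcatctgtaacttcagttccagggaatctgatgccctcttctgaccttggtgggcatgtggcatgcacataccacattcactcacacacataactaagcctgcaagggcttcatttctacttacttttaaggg

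The libraries held 1253246 UMIs in colon 1, 3916649 in colon 2 and 1255946 in spleen, with a median of 1767, 2026.5 and 1847 UMIs per cell in that order. Colon 2 had fewer reads per molecule, with a median of 20.6 mapped reads per UMI, against 49.8 in colon 1 and 45.8 in spleen. The part of this in differences between the colon libraries was not tested. Levels are given as counts per 1000000 UMIs of the library (CPM), and ratios as log2 of colon over spleen, where 1 is a doubling. Ribosomal protein genes took 17.2%, 15.97% and 27.7% of the UMIs in colon 1, colon 2 and spleen. With totals that leave them out, the median log2 ratio of all genes moved by -0.20 in colon 1 and -0.22 in colon 2, and every ratio moved by as much. The 8 T cell and Treg markers in the table summed to 6140 CPM in colon 1, 6020 in colon 2 and 3459 in spleen. Ctla4 held most of that gap, with 2636, 2245 and 480 CPM in that order. Cd4, Foxp3 and Il2ra were also higher in both colon libraries, whereas Cd3d, Cd3g and Ikzf2 were lower. Cd3e was at log2 -0.04 and 0.18 over spleen. The marker sums of 6 other cell types lay between 37.5 and 234 CPM in colon 1, 53.9 and 230 CPM in colon 2, and 58.1 and 105 CPM in spleen, with Csf1r of macrophages and Cdh5 of endothelium at 0. Heat-shock genes (Hspa1a, Hspa1b, Dnajb1 and Hsph1) summed to 749 CPM in colon 1, 862 in colon 2 and 104 in spleen, and genes of dividing cells to 931, 834 and 342 CPM. A set of 50 cells carried a barcode found in another library. UMIs of a gene lay in fewer cells than independent counts would: after thinning to 1000 UMIs per cell the variance over the mean had a median over the 45 genes of 1.64 in colon 1, 1.41 in colon 2 and 1.62 in spleen, near that of all genes of like level (1.58, 1.41 and 1.49). Counting intervals are therefore too narrow.

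As a whole the proteasome genes were close to equal in colon and spleen Tregs. All 45 summed to 5452 CPM in colon 1, 5417 in colon 2 and 4999 in spleen, log2 ratios of 0.13 and 0.12. The median gene stood at 0.18 in colon 1 and 0.11 in colon 2, against 0.00 and 0.01 over all genes. Without ribosomal protein genes in the totals these medians were -0.01 and -0.11, against -0.19 and -0.21 over all genes, so the sign of the median ratio depends on the scaling. The ratios of both colon libraries are taken over the same spleen cells.

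Of the 45 genes, 32 lay within 1.5-fold of spleen in both colon libraries, whereas 39.6% of the 9580 genes did, and 44.4% of the 7642 genes with at least as many UMIs as the lowest proteasome gene (71). The SD of the log2 ratio over the proteasome genes was 0.50 in colon 1 and 0.45 in colon 2, against 1.009 and 1.024 over those 7642 genes. Those genes share only the minimum, and their levels were not matched to the proteasome genes. Ratios of genes with few UMIs scatter more by counting error, and whether the narrower spread holds at equal level was not tested. Above spleen in both colon libraries were 22 genes (39.5% of all genes and 41.3% of those 7642), and below it in both were 11 (38.8%). With totals without ribosomal protein genes these counts were 14 (29.7% of all genes) and 19 (51.5%), so which direction held more genes depends on the scaling. At least 2-fold higher in both was 1 gene, Psmc2 (10.4% of all genes and 9.92% of those 7642), and 0 genes were 2-fold lower (5.4% of all genes). With totals without ribosomal protein genes 0 were 2-fold higher (8.07% of all genes) and 1, Psmb10, was 2-fold lower (8.56%). After thinning each cell to 1000 UMIs 0 were 2-fold higher (10.8% of all genes) and 2, Psmb10 and Psmg2, were 2-fold lower (6.62%). Psmc2 and Psmf1 were at least 1.5-fold higher in both (17.3% of all genes), and Psmb10 and Psmg4 at least 1.5-fold lower (13.3%).

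**Figure D1:**
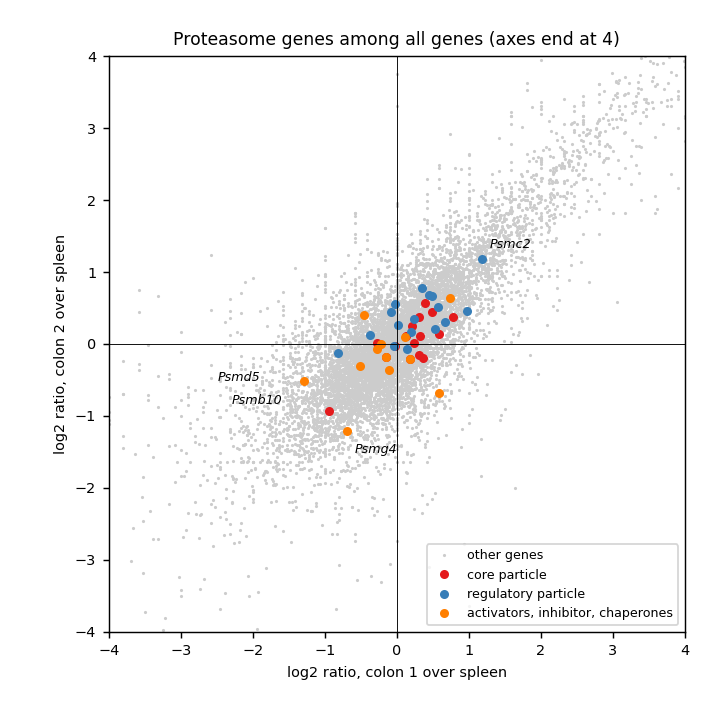
Log2 ratio of colon 1 over spleen (x axis) and colon 2 over spleen (y axis) for every gene with at least 30 UMIs, with the core particle, the regulatory particle and the other proteasome genes in colour; genes beyond 4 on either axis are not drawn, and both axes use the same spleen library. Most of the 45 coloured points sit near the origin, with Psmc2 at 1.19 and 1.18 and Psmb10 at -0.95 and -0.93.

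The particles differed in their distance from spleen in colon 2, and less clearly in colon 1. The core particle genes summed to 2856 CPM (2763 to 2951) in colon 1, 2646 CPM (2596 to 2698) in colon 2 and 2530.4 CPM (2443 to 2619.9) in spleen, log2 ratios of 0.17 and 0.06 that became -0.02 and -0.15 without ribosomal protein genes in the totals. The regulatory particle genes summed to 1419.5 CPM (1354 to 1487) in colon 1, 1509.7 CPM (1472 to 1549) in colon 2 and 1189.5 CPM (1130.0 to 1251) in spleen. Their log2 ratios were 0.25 (0.15 to 0.36) and 0.34 (0.26 to 0.43), and 0.06 and 0.13 with those totals. The activators, inhibitor and chaperones summed to 1177, 1261 and 1279.5 CPM in colon 1, colon 2 and spleen. In these sums the regulatory particle stood farther above spleen than the core particle in both colon libraries, but after thinning each cell to 1000 UMIs the particles were level in colon 1, at 0.13 for the core and 0.12 for the regulatory particle.

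That contrast can be read within each library, which removes the scaling. Core particle genes made up 66.8% (65.5 to 68.1) of the UMIs of both particles in colon 1, 63.7% (62.9 to 64.4) in colon 2 and 68.0% (66.7 to 69.4) in spleen. Over spleen, colon 1 had a log2 odds ratio of -0.08 (-0.20 to 0.04) and colon 2 one of -0.28 (-0.38 to -0.18). The colon libraries therefore lay on the same side of spleen, but for colon 1 the interval included 0, and the gap between the colon libraries was larger than that between colon 1 and spleen. Leaving out Psmb10 and Psmc2, the core summed to log2 ratios of 0.23 and 0.12 and the regulatory particle to 0.21 and 0.31, and the order of the particles in colon 1 was then the other way.

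**Figure D2:**
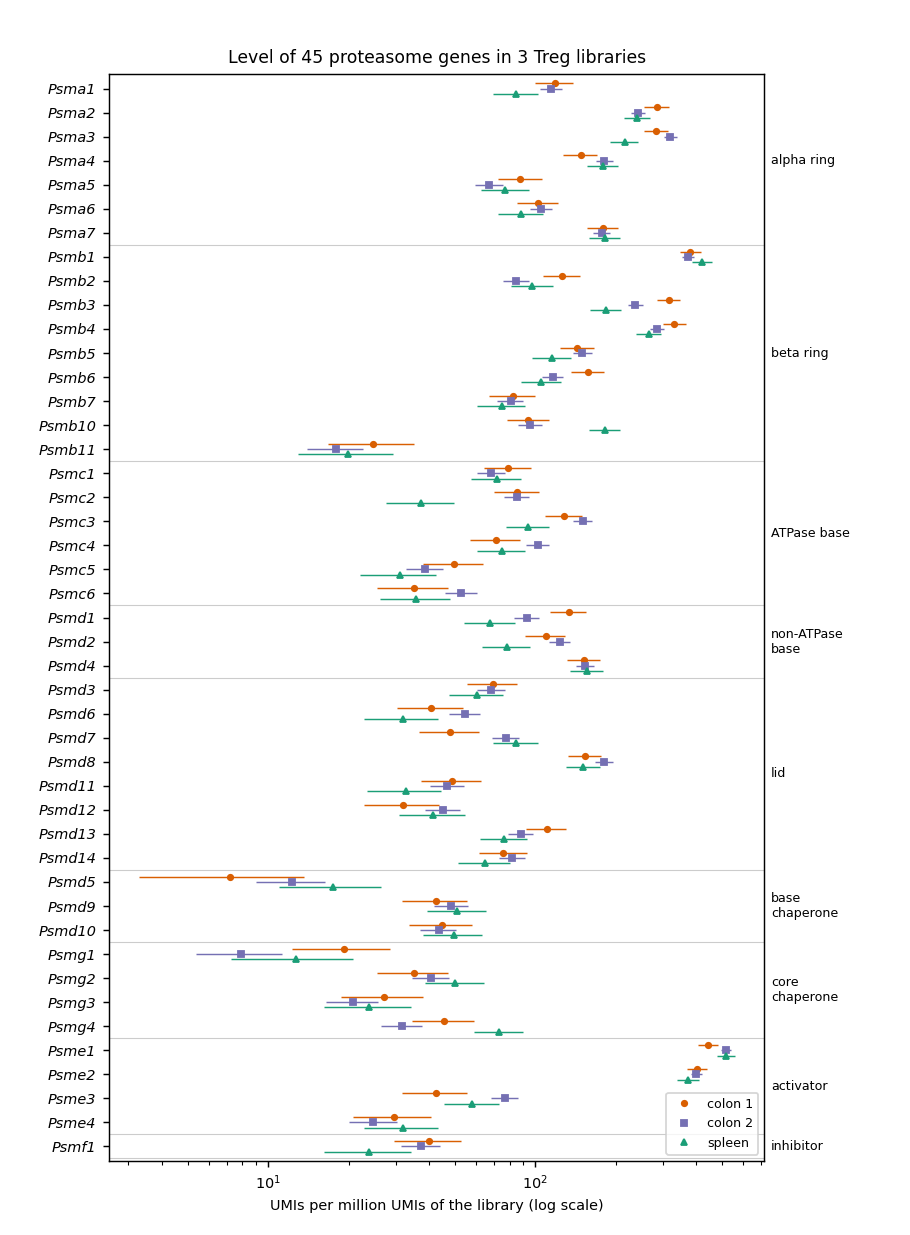
CPM of each of the 45 proteasome genes in colon 1, colon 2 and spleen on a log axis, with exact Poisson 95% intervals (counting error only), grouped by role. The 3 libraries overlap for most genes, while Psmc2 (85.4, 85.02 and 37.4 CPM) and Psmb10 (94.2, 95.2 and 182 CPM) show both colon libraries apart from spleen. Psma3, Psmb3 and Psmg4 also have both colon intervals clear of that of spleen, Psmg4 only just in colon 1.

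The alpha ring, the outer ring that gates the barrel, had 7 genes measured. Their sum was 1202 CPM in colon 1, 1207 in colon 2 and 1067 in spleen, a small excess that the totals without ribosomal protein genes turned to just under 0, with log2 ratios of the single genes from -0.28 to 0.48 in colon 1 and from -0.20 to 0.57 in colon 2. Psma3 was the highest of the ring by mean ratio. It had 283 CPM (255 to 314) in colon 1, 320.2 CPM (303 to 338) in colon 2 and 216 CPM (191 to 243) in spleen, log2 0.39 and 0.57. The colon intervals lay above that of spleen, and Psma3 has processed pseudogenes nearly identical to its 3′ end, so that its counts are uncertain. Psma4 was the lowest, with 148 CPM (127 to 170.5) in colon 1, 181 CPM (168 to 195) in colon 2 and 179 CPM (157 to 204) in spleen. The intervals of all 3 libraries overlapped, and the ratio of colon 1, -0.28, had an interval from -0.57 to 0.01. Psma1 was at 0.48 and 0.44. The other alpha genes, Psma2, Psma5, Psma6 and Psma7, lay between -0.20 and 0.25 in both colon libraries.

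The beta ring carries the proteolytic sites in Psmb5, Psmb6 and Psmb7 and in the interferon-induced Psmb10. Psmb5, the subunit of the chymotrypsin-like site, had 144 CPM (123 to 166) in colon 1, 149.6 CPM (138 to 162) in colon 2 and 115 CPM (97.4 to 136) in spleen, log2 0.32 and 0.37. Psmb6, the caspase-like subunit, had 157 CPM (136 to 181) in colon 1, 116 CPM (106 to 127) in colon 2 and 105 CPM (87.9 to 125) in spleen, log2 0.58 and 0.14. Psmb7, the trypsin-like subunit, had 82.2 CPM (67.1 to 99.7) in colon 1, 80.7 CPM (72.0 to 90.1) in colon 2 and 74.8 CPM (60.5 to 91.6) in spleen, log2 0.14 and 0.11. All 3 constitutive catalytic genes were thus slightly above spleen, except that Psmb7 in both colon libraries and Psmb6 in colon 2 were slightly below it with totals without ribosomal protein genes. The gap was largest in colon 1 for Psmb6, where the 2 colon libraries themselves differed.

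Psmb10 stood apart from them. It had 94.2 CPM (77.9 to 113) in colon 1, 95.2 CPM (85.8 to 105) in colon 2 and 182 CPM (159 to 207) in spleen. Both colon libraries were below spleen with no overlap of their intervals, at log2 -0.95 (-1.28 to -0.62) and -0.93 (-1.17 to -0.69), and the colon libraries were alike (colon 2 over colon 1, log2 0.02, -0.29 to 0.33). These were 118 UMIs in 72 of 619 cells in colon 1, 373 UMIs in 228 of 1772 cells in colon 2 and 228 UMIs in 123 of 617 cells in spleen. Of the UMIs of the exchangeable pair, Psmb10 took 53.4% (46.6 to 60.1) in colon 1, 54.1% (50.3 to 57.9) in colon 2 and 70.8% (65.5 to 75.7) in spleen, which is a share of counted UMIs and no stoichiometry of the particles. Over spleen, this gave colon 1 a log2 odds ratio of -1.08 (-1.62 to -0.54) and colon 2 one of -1.04 (-1.46 to -0.62). Psmb10 (GRCm38 chromosome 8, 105935735 to 105938444, minus strand) is overlapped over its whole length by the annotated antisense RNA Gm16156, and whether counting used strand is not given in the sources used here.

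More genes of the interferon-response list were lower than higher in colon. At least 2-fold lower in both colon libraries were 3 of its 14 genes (5.4% of all genes) and 2-fold higher 0 (10.4%), while at 1.5-fold 5 were lower (13.3%) and 2 higher (17.3%). The 14 genes summed to 1817 CPM in colon 1, 1508 in colon 2 and 2466 in spleen, of which Ifi27l2a, an interferon-induced gene, held much of the difference. Without it the other genes summed to 1179 CPM (1120.0 to 1241) in colon 1, 993 CPM (962 to 1025) in colon 2 and 1231 CPM (1170.3 to 1294) in spleen, and the intervals of colon 1 and spleen overlapped. Usp18, a protease that removes the interferon-induced protein ISG15 from other proteins, was at log2 -3.19 and -4.83. In contrast, Irf1, a transcription factor induced by interferon, was at 0.87 and 0.75. Of the other interferon-induced genes among the 45, Psme1 was at -0.22 and 0.01 and Psme2 at 0.11 and 0.10. With totals without ribosomal protein genes Psme1 and Psme2 were below spleen in both colon libraries. Psmb8 and Psmb9 were left out by the rule. The part of the interferon response in the Psmb10 difference was not tested.

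Among the structural beta genes Psmb3 was the highest of the ring, with 316 CPM (286 to 349) in colon 1, 236 CPM (221 to 252) in colon 2 and 183 CPM (160.2 to 208) in spleen, log2 0.79 and 0.37. Its colon libraries were both above spleen and also apart from each other, and pseudogenes match its 3′ end. Psmb1 was at -0.15 and -0.17, Psmb2 at 0.37 and -0.20, and Psmb4 at 0.32 and 0.11. Psmb11, which in the mouse is known from thymic cortical epithelium, had 31 UMIs in 29 cells of colon 1, 70 UMIs in 69 cells of colon 2 and 25 UMIs in 25 cells of spleen, that is 24.7, 17.9 and 19.9 CPM. Its 3′ end holds a stretch found at 95% identity or more in many other transcripts, so these UMIs cannot be assigned to it with certainty.

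**Figure D3:**
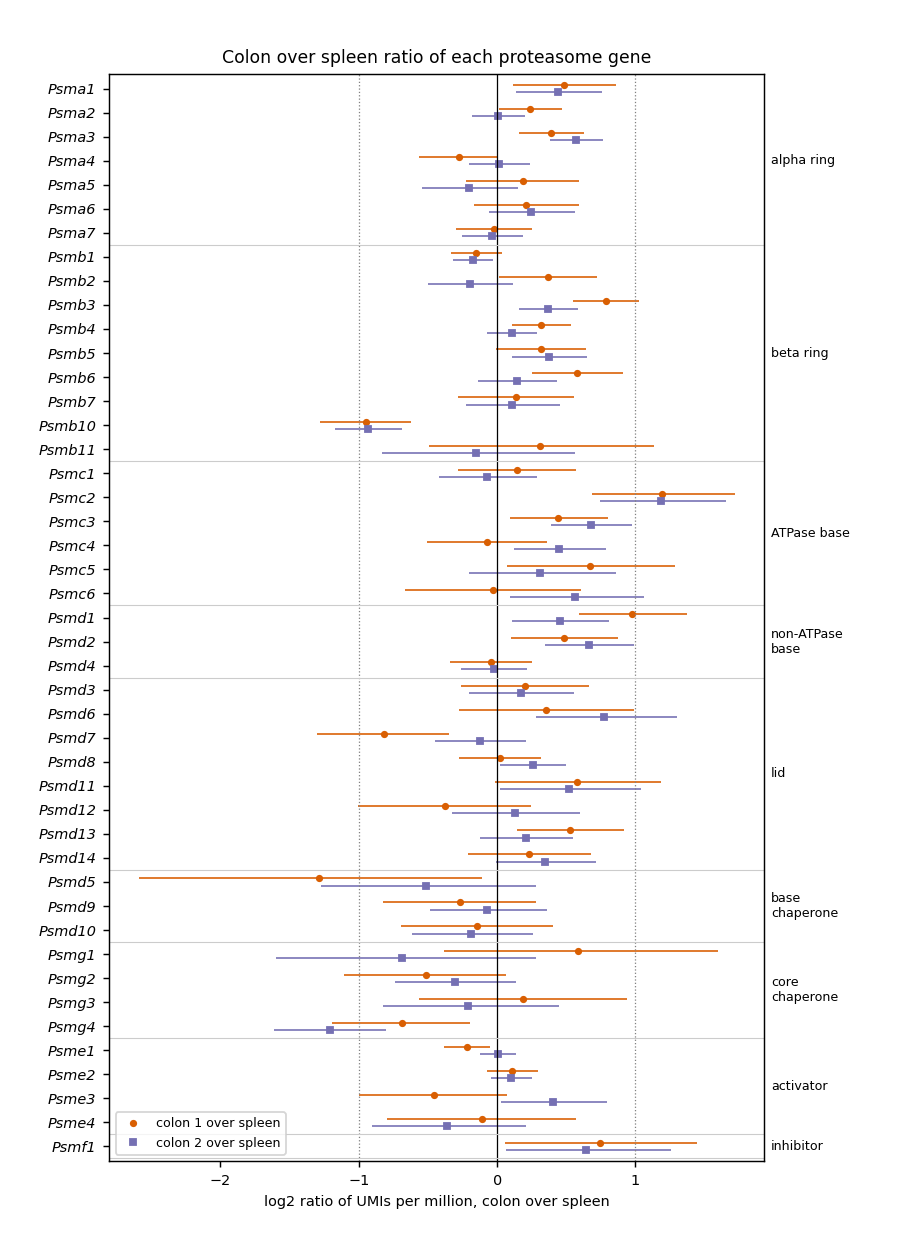
Log2 ratio of CPM, colon 1 over spleen and colon 2 over spleen, for each of the 45 proteasome genes with exact conditional 95% intervals (counting error only), grouped by role; dotted lines mark 2-fold. In these ratios Psmc2 lies above 1 and Psmb10 near -0.94 in both colon libraries, and with totals without ribosomal protein genes every point would sit 0.20 (colon 1) or 0.22 (colon 2) lower.

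The ATPase base, the ring of AAA ATPases that unfolds substrates, had, apart from the single inhibitor gene, the highest sum relative to spleen by the mean of both log2 ratios. Its 6 genes summed to 448 CPM (411 to 486) in colon 1, 497 CPM (475 to 519.7) in colon 2 and 345 CPM (313 to 379) in spleen, log2 0.38 and 0.53. Psmc2 led it, with 85.4 CPM (70.0 to 103) in colon 1, 85.02 CPM (76.1 to 94.7) in colon 2 and 37.4 CPM (27.5 to 49.8) in spleen. These were 107 UMIs in 67 cells, 333 UMIs in 194 cells and 47 UMIs in 32 cells, in that order. Both colon libraries lay above spleen with no overlap of intervals, at log2 1.19 (0.68 to 1.72) and 1.18 (0.74 to 1.66), and colon 2 over colon 1 was at -0.01 (-0.32 to 0.32). Psmc2 fell just short of 2-fold with totals without ribosomal protein genes, and when each cell was thinned to 1000 UMIs. The search of 3′ ends found no near copy of Psmc2 (GRCm38 chromosome 5, 21785283 to 21803787, plus strand), and no annotated gene overlaps it.

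Psmc2 took 19.1% (15.9 to 22.6) of the base ATPase UMIs in colon 1, 17.1% (15.5 to 18.9) in colon 2 and 10.9% (8.09 to 14.2) in spleen. Without it the other ATPase genes still summed to 362 CPM in colon 1, 412 in colon 2 and 307 in spleen, log2 0.24 (0.04 to 0.44) and 0.42 (0.26 to 0.59), whose sign also held with the totals without ribosomal protein genes. Psmc3 was at 0.44 and 0.68, Psmc5 at 0.67 and 0.31, Psmc4 at -0.08 and 0.45, and Psmc6 at -0.03 and 0.56. Psmc1 was the lowest, with 79.0 CPM (64.2 to 96.2) in colon 1, 68.2 CPM (60.2 to 76.9) in colon 2 and 71.7 CPM (57.6 to 88.1) in spleen, where all intervals overlapped. The ratios of the ATPases of 1 ring, which are present in equal numbers in the particle, thus varied. Without Psmc2 their intervals in colon 1 all overlapped. In colon 2 only those of Psmc1 (-0.42 to 0.29) and Psmc3 (0.39 to 0.98) did not overlap.

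Of the other base subunits, Psmd1, a scaffold of the base, was the highest, with 133 CPM (114 to 155) in colon 1, 92.7 CPM (83.4 to 103) in colon 2 and 67.7 CPM (54.1 to 83.7) in spleen, log2 0.98 and 0.45. Colon 1 stood above colon 2, which itself touched the spleen interval. The gene shares transcript sequence with the gene model Gm21972 on the same strand. Psmd2, the partner scaffold, was at 0.49 and 0.66. Psmd4, a ubiquitin receptor, was the lowest and nearly level, with 152 CPM (131 to 175) in colon 1, 153 CPM (141 to 166) in colon 2 and 156 CPM (135 to 179.5) in spleen.

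The lid, which carries the deubiquitinase Psmd14, summed to 578 CPM (536 to 621) in colon 1, 643 CPM (618 to 669) in colon 2 and 543 CPM (503 to 585) in spleen, log2 0.09 and 0.24, of which colon 1 was below 0 with totals without ribosomal protein genes. Psmd6 had the highest mean ratio, with 40.7 CPM (30.3 to 53.5) in colon 1, 54.4 CPM (47.3 to 62.2) in colon 2 and 31.8 CPM (22.8 to 43.4) in spleen. There the interval of colon 2 was clear of spleen and that of colon 1 was not. Psmd7, which pairs with Psmd14, had the lowest, with 47.9 CPM (36.5 to 61.6) in colon 1, 77.4 CPM (68.9 to 86.6) in colon 2 and 84.4 CPM (69.1 to 102) in spleen, log2 -0.82 and -0.13. The interval of colon 1 lay below that of spleen, and that of colon 2 overlapped it. Psmd14 itself was at 0.23 and 0.35, Psmd11 at 0.58 and 0.52, Psmd13 at 0.53 and 0.21, Psmd12 at -0.38 and 0.13, Psmd3 at 0.20 and 0.17, and Psmd8 at 0.02 and 0.26. The base ATPases made up 43.7% (40.9 to 46.4) of the UMIs of base ATPases and lid in colon 1, 43.6% (42.1 to 45.1) in colon 2 and 38.8% (36.0 to 41.8) in spleen, log2 odds ratios of 0.29 (0.05 to 0.53) and 0.28 (0.09 to 0.48). Without Psmc2 these were 0.15 (-0.10 to 0.40) and 0.18 (-0.02 to 0.39), whose intervals included 0.

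Activators bind the open ends of the core in place of the regulatory particle. Psme1 and Psme2 form a ring together, Psme3 forms one alone in the nucleus, and Psme4 is a single large chain. The 4 genes summed to 916 CPM in colon 1, 1019 in colon 2 and 978 in spleen. Psme4 was the lowest of the activators and inhibitor, with 29.5 CPM (20.8 to 40.7) in colon 1, 24.8 CPM (20.1 to 30.2) in colon 2 and 31.8 CPM (22.8 to 43.4) in spleen, and all intervals overlapped. Psme3 differed between the colon libraries, at 76.9 CPM in colon 2 and 42.3 CPM in colon 1, with 58.1 CPM in spleen between them. Psmf1, a protein that inhibits the core, was the highest, with 39.9 CPM (29.6 to 52.6) in colon 1, 37.3 CPM (31.5 to 43.8) in colon 2 and 23.9 CPM (16.1 to 34.1) in spleen. Its log2 ratios were 0.74 (0.06 to 1.44) and 0.64 (0.07 to 1.26), with wide intervals from 30 spleen UMIs that overlap those of the colon libraries, and it did not pass 1.5-fold in both colon libraries with totals without ribosomal protein genes, without dividing cells, after thinning or with cells weighted equally.

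The assembly chaperones were the only role groups whose sums were lower in both colon libraries with totals over all genes (without ribosomal protein genes the alpha ring, the beta ring and the activators were lower too). Those of the core (Psmg1 to Psmg4), which order the alpha subunits, summed to 127 CPM (108 to 148) in colon 1, 101 CPM (91.2 to 111) in colon 2 and 160.0 CPM (139 to 184) in spleen, log2 -0.34 (-0.64 to -0.03) and -0.67 (-0.91 to -0.41). Psmg4 was the lowest chaperone by mean ratio, with 45.5 CPM (34.4 to 58.9) in colon 1, 31.7 CPM (26.3 to 37.7) in colon 2 and 73.3 CPM (59.1 to 89.8) in spleen. It lay below spleen in both, at -0.69 and -1.21, but after thinning to 1000 UMIs per cell colon 1 was level with spleen (0.01). Without Psmg4 the other core chaperones summed to log2 ratios of -0.09 (-0.50 to 0.31) and -0.33 (-0.65 to 0.01), whose intervals included 0. Psmg2 was at -0.51 and -0.31. Psmg3 had the highest mean ratio of the chaperones, with 27.1 CPM (18.8 to 37.9) in colon 1, 20.7 CPM (16.4 to 25.7) in colon 2 and 23.9 CPM (16.1 to 34.1) in spleen, where the intervals overlapped.

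The base chaperones Psmd5, Psmd9 and Psmd10, which hold pairs of ATPases during assembly, summed to 94.2 CPM (77.9 to 113) in colon 1, 104 CPM (94.3 to 115) in colon 2 and 118 CPM (99.6 to 138) in spleen. Psmd5 was at -1.29 and -0.52 from only 9 UMIs in colon 1, 48 in colon 2 and 22 in spleen. Psmd9 was at -0.27 and -0.07, and Psmd10 at -0.14 and -0.19. All 3 were below spleen in both colon libraries, with small gaps for the last 2.

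The colon libraries differed from each other at 1.5-fold in 5 of the 45 genes, against 27.3% of all genes, and at 2-fold in 1, against 10.2%. All genes here are those with at least 30 UMIs over all cells, not matched in level to the proteasome genes. Genes with few UMIs pass these folds more often by counting error, and a comparison at equal level was not made. The gene 2-fold apart was Psmg1, with 7.91 CPM (5.38 to 11.2) in colon 2 and 19.2 CPM (12.3 to 28.5) in colon 1, beside 12.7 CPM (7.28 to 20.7) in spleen. It lay above spleen in colon 1 and below it in colon 2, from 24, 31 and 16 UMIs in colon 1, colon 2 and spleen. Psme3, Psmd5, Psmd7 and Psmc6 were at least 1.5-fold higher in colon 2 than in colon 1. None of these 5 genes passed 1.5-fold against spleen in the same direction in both colon libraries.

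Per cell, the particles were sparse. After thinning to 1000 UMIs, a cell held on average 2.77 core particle UMIs in colon 1, 2.57 in colon 2 and 2.53 in spleen, and 1.34, 1.47 and 1.23 regulatory particle UMIs. Cells with no regulatory particle UMI made up 36.4% of colon 1, 31.4% of colon 2 and 38.8% of spleen. Core and regulatory UMIs of a cell were nearly unrelated at this depth (Pearson r 0.03 over 610 cells of colon 1, 0.08 over 1744 of colon 2 and 0.05 over 613 of spleen, all at the same thinned depth), which in counts this sparse is no finding. No group of cells with much higher proteasome counts stands out in the distributions.

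**Figure D4:**
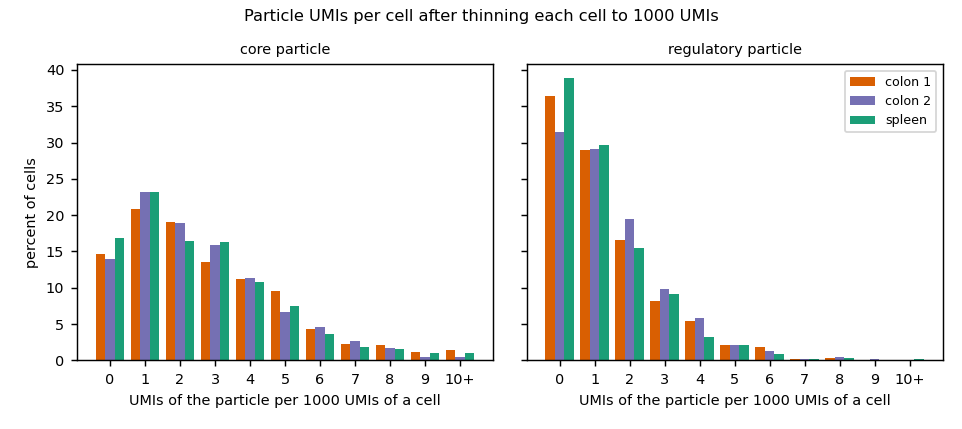
Percent of cells (y axis) by the number of core particle UMIs (left) and regulatory particle UMIs (right) per 1000 UMIs of the cell, in colon 1, colon 2 and spleen; the last bar holds cells with 10 or more. The 3 libraries have like shapes, and fewer colon 2 cells (31.4%) than colon 1 (36.4%) or spleen cells (38.8%) had no regulatory particle UMI.

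Cells were also split by genes that are not proteasome genes. Dividing cells (2 or more detected genes of a list of 14) numbered 61 in colon 1, 169 in colon 2 and 31 in spleen. In them the core particle had 3699 CPM (3438 to 3974) in colon 1, against 2694 CPM (2596 to 2795) in the other cells. In colon 2 it was 3037 CPM (2891 to 3189.5), against 2585 CPM (2531 to 2639.9). In spleen it was 2814 CPM (2494 to 3163), against 2506 CPM (2416 to 2599), where the intervals overlap. The regulatory particle had 1857 CPM in dividing and 1336 in other cells of colon 1, 1771.5 and 1469 in colon 2, and 1202 and 1188.5 in spleen. Dividing cells were deeper, with a median of 2556 UMIs in colon 1, 2597 in colon 2 and 2761 in spleen, against 1729, 1985 and 1827 in the others. Leaving them out lowered the core ratio of colon 1 to 0.10.

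For the core particle, cells with a heat-shock UMI were nearly level with the rest in the colon libraries and higher in spleen. Their core particle had 2854 CPM in colon 1, 2617 in colon 2 and 2783 in spleen, against 2857, 2663 and 2490.0 CPM in cells without one. In spleen the core intervals, 2540 to 3043 with and 2397 to 2586 without, overlapped. The regulatory particle had 1515 CPM in colon 1, 1475 in colon 2 and 1224 in spleen with a heat-shock UMI, against 1376, 1528.5 and 1184 without. All 45 genes summed to 5450.3 CPM (5108 to 5809) in spleen cells with a heat-shock UMI, against 4927 CPM (4796 to 5061) in those without. Among cells with a heat-shock UMI the core particle was thus lower in colon 2 than in spleen and close to spleen in colon 1, with overlapping intervals, while the regulatory particle was above spleen in colon cells of either kind. Cells at or above the library's median depth had 2943 core CPM in colon 1, 2724 in colon 2 and 2512 in spleen, against 2691, 2503 and 2563 in shallower cells, so the colon libraries and spleen differed in the direction of that gap. The regulatory particle had 1496.5 CPM in colon 1, 1546.5 in colon 2 and 1152 in spleen in the deeper cells, against 1274, 1442 and 1255 CPM in the shallower ones, where colon 1 was close to spleen.

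Partner genes of the proteasome were described from a list of 37 symbols, some of them older and newer names of 1 gene. In the table were 33, and 32 passed the minimum; Ddi2, the protease that activates the Nfe2l1 product, had 0 UMIs. In both colon libraries 2 were at least 2-fold higher (Mafg and Akirin2, against 10.4% of all genes) and 0 lower (5.4%), and at 1.5-fold 6 were higher (17.3%) and 2 lower (13.3%). Akirin2 fell short of 2-fold with totals without ribosomal protein genes, without cells with a heat-shock UMI, without dividing cells, after thinning and with cells weighted equally, whereas Mafg passed it in each. The median log2 ratio was 0.07 in colon 1 and 0.18 in colon 2. The list sat near the middle of all genes, as the proteasome genes did.

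Ubb, which encodes polyubiquitin, had 582 CPM (541 to 626) in colon 1, 103 CPM (93.6 to 114) in colon 2 and 216 CPM (191 to 243) in spleen. The colon libraries lay on opposite sides of spleen with no overlap of intervals.

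Mafg, a small MAF protein, was at log2 1.70 (0.97 to 2.48) and 1.47 (0.81 to 2.19), with 54.3 CPM in colon 1, 46.2 in colon 2 and 16.7 in spleen. Nfe2l1 had 21.5 CPM (14.2 to 31.3) in colon 1, 34.7 CPM (29.1 to 41.1) in colon 2 and 31.1 CPM (22.1 to 42.5) in spleen, and the intervals of all 3 libraries touched. Akirin2, an importer of proteasomes into the nucleus, was at 1.07 and 1.08. Ube3c, a ubiquitin ligase bound to the proteasome, was at 1.11 and 0.92. Pomp, the chaperone that joins the core together, was level, with 294 CPM in colon 1, 268 in colon 2 and 275 in spleen.

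**Figure D5:**
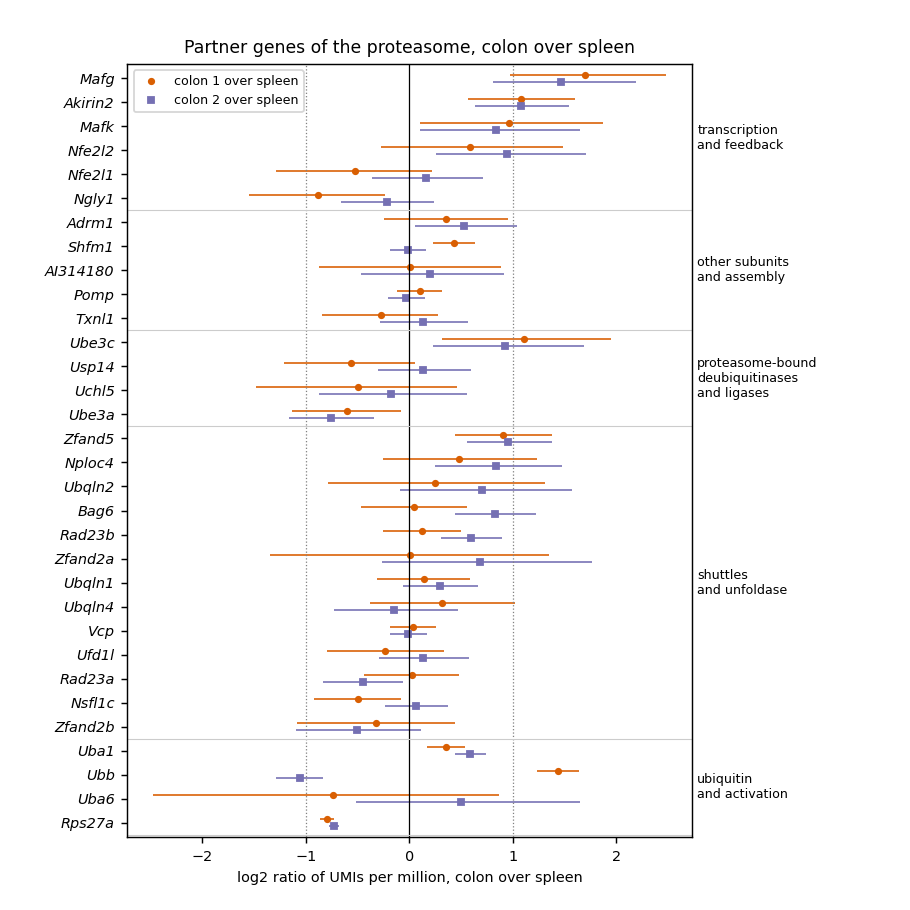
Log2 ratio of CPM, colon 1 over spleen and colon 2 over spleen, for the 32 measured partner genes with exact conditional 95% intervals (counting error only), grouped by role; dotted lines mark 2-fold. Mafg lies above 1 in both colon libraries and Ubb on opposite sides of spleen (1.43 and -1.06), and with totals without ribosomal protein genes every point would sit 0.20 (colon 1) or 0.22 (colon 2) lower.

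The counting of some genes is uncertain. For 13 of the 45 genes the last 300 transcript bases match another annotated transcript over at least 100 bases at 95% identity or more: Psma3, Psma4, Psma5, Psmb3, Psmb5, Psmb7, Psmb11, Psmc3, Psmd1, Psmd2, Psmd11, Psme1 and Psme2. Psmb11 shares a repeated stretch with 29 transcripts, of which 17 are protein-coding genes with rows in the table. The copies of the other genes were mostly processed pseudogenes with no row. Psmd11 matches A730017L22Rik at 99.3% over 300 bases, and that transcript had 63 UMIs. Psme2 matches Psme2b at 99.0% over 300 bases, and Psme2b had 0 UMIs. Psmb7 and Psmc3 share sequence with Nek6 and Slc39a13, which overlap them on the other strand and had 8 and 66 UMIs.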

How the data were processed

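Per the labels' protocols, sorted cells were encapsulated for inDrops, mRNA was reverse transcribed with oligo-dT in droplets and amplified by in vitro transcription, with sequencing on a NextSeq500. TopHat2, SAMtools and the mm10 build are named in the submitters' processing notes. Parameters, annotation, strand setting and cell filters are not stated there. As deposited, the table holds UMI counts per gene and cell (3008 cells), not normalized by the authors. Every value was a whole number and every cell column matched a labelled cell.

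UMIs were summed per library and divided by the library total. Exact Poisson intervals (CPM), exact conditional binomial intervals (ratios) and Clopper-Pearson intervals (shares) at 95% cover counting error only, and PCR duplicates enter as far as the authors collapsed UMIs. A gene was called past 2-fold or 1.5-fold only with both colon libraries on the same side. Named in full were the catalytic genes, the highest and lowest of each role group, genes past 2-fold and genes 2-fold apart between colon libraries. The rule for printed proteins (Psmb7 and Psmb10) was not carried out, since no protein table was used here. Thinning drew 1000 UMIs per cell with a fixed seed and left out 9, 28 and 4 shallower cells of colon 1, colon 2 and spleen. Cells with 2 markers of another cell type numbered 14, 38 and 3. No doublet caller was run. Positions and overlaps come from GENCODE vM21 (GRCm38) and promoters from RefSeq (GRCm38.p6). Some listed partner genes are not reported here. The genes, lists and roles were chosen with earlier results of these data known. Alternatives were totals without ribosomal protein genes, TMM factors (edgeR 4.0.16, R 4.3.3), median of ratios factors, cell filters, thinning, equal cell weights and leaving out either colon library. Scripts ran in Python 3.11.15 and were tested on simulated data.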

Additional observations from a re-analysis of the deposited data

How the results depend on the processing

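TMM scaling, median of ratios scaling and equal cell weights moved none of the 90 values beyond counting error or 1.5 times. The same held for leaving out dividing cells, cells with 2 markers of another type or cells with a shared barcode. Of the 90 values, 10 moved that far with totals without ribosomal protein genes and 2 without cells with a heat-shock UMI. Thinning to 1000 UMIs per cell moved 8 and reversed 1, and counting a gene once per thinned cell moved 15. Totals without ribosomal protein genes gave the core particle log2 ratios of -0.021 and -0.15 and the regulatory particle 0.059 and 0.13 (colon 1 and colon 2). With them 0 genes were at least 2-fold higher (8.07% of all genes) and 1 gene, Psmc2, at least 1.5-fold higher (12.95%). At least 2-fold lower was 1 gene, Psmb10 (8.56%), and at least 1.5-fold lower were 3 (Psmb10, Psmd5 and Psmg4, against 20.5%). Without cells with a heat-shock UMI 4 genes were at least 1.5-fold higher (Psmc2, Psmc5, Psmd11 and Psmf1, against 17.5% of all genes). Without dividing cells the core ratio of colon 1 was 0.10 and 1 gene (Psmc2) was at least 1.5-fold higher (17.1% of all genes). Thinning to 1000 UMIs per cell gave 0.12 for the regulatory and 0.13 for the core particle in colon 1, turning their order. It left 0 genes at least 2-fold higher (10.8% of all genes) and 2 at least 2-fold lower (Psmb10 and Psmg2, against 6.62%). Psmg4 was then at 0.0071 in colon 1, a turn of sign. With cells weighted equally the core ratio of colon 1 was 0.10 and its regulatory ratio 0.15. By that weighting 1 gene was at least 1.5-fold higher (16.8% of all genes). Counting a gene once per thinned cell was chosen after seeing the data. It gave 0.065 for the core in colon 1 and 0.046 and 0.21 for the regulatory particle, again turning the order in colon 1. By that count 0 genes were at least 2-fold higher (8.14% of all genes). Leaving out either colon library gave 5 to 6 genes at least 1.5-fold higher and 3 to 4 lower. That rule needs only 1 colon library, and its share over all genes is not given here. Leaving out ribosomal protein genes lowers every ratio by construction; the cause of the other changes was not tested. Depth limits single genes most: Psmd5, Psmg1, Psmg3, Psmb11 and Psmf1 rest on 30 or fewer spleen UMIs. No paired analysis was possible because the labels pair no libraries and spleen has 1.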
